A study of Mus musculus with 7 samples.

Results

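The genes described here coat the lipid droplets of liver cells, break down the triglyceride stored in them, or act on other lipids at their surface. They are 10 genes named by symbol (Plin2, Plin3, Plin4, Plin5, Pnpla2, Abhd5, G0s2, Mgll, Hsd17b13 and Hsd17b11), and all 10 were found among the 23366 gene rows of the deposited tables. Liver RNA came from C57BL/6 mice, a common inbred strain, aged 3 months (4 libraries) or 21 months (3 libraries). The groups differ in the labels by age alone, and no allele, diet, agent, sex or feeding state is given for either. Whether each library is a different mouse is not stated in the labels, so a p-value speaks for the spread of these libraries, which may be technical.

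A lipid droplet is a core of triglyceride and sterol esters under a single layer of phospholipid, and perilipins are the proteins that cover that layer. Adipose triglyceride lipase, made from Pnpla2, removes the first fatty acid from triglyceride; the protein of Abhd5 (CGI-58) activates it and that of G0s2 inhibits it, while the enzyme of Mgll completes the breakdown by cleaving monoacylglycerol. In hepatocytes Plin2 is the main coat protein of stored fat, Plin5 links droplets to mitochondria, and Hsd17b13 and Hsd17b11 encode related dehydrogenases that sit on the droplet surface.

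The libraries held 4724687 to 11143125 expected counts (estimated reads per gene), of which the 10 genes took 0.0781% to 0.118%. All 10 genes passed the filter on low counts, the lowest being Plin4 with 42 counts in 3-month replicate 4. The ribosomal RNA precursor row Rn45s took 18.7% to 25.6% of a library. Hepatocyte markers dominated in every library. The 10 hepatocyte markers summed to 64520 to 86880 TPM (relative transcript abundance, a level per length) at 3 months and 83980 to 95050 TPM at 21 months. Of these 10 markers, 1 was called higher and 1 lower, and their median log2 fold change was -0.21. At an unadjusted p under 0.05, 1 was higher and 4 lower. DESeq2 called 1 higher and 3 lower, and limma voom 1 higher and 2 lower. The gene called higher, Alb, stood at 25320 to 44370 TPM at 3 months and at 50820 to 57030 TPM at 21 months. The shortfall of effective length below gene length, as a median over genes, was 34.4 to 38.8 bases at 3 months. It was 35.4, 30.9 and 21.4 bases in 21-month replicates 1, 2 and 3, so the 2 lowest values were at 21 months. What sets this shortfall was not tested.

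Of the 10 genes, 2 rose with age, Hsd17b11 and Mgll, and 0 fell, with p-values from edgeR's quasi-likelihood fit of 11251 genes adjusted over all of them by Benjamini-Hochberg (adjusted p under 0.05). Over all genes tested, 11.3% were called, 5.47% higher and 5.86% lower. At an unadjusted p under 0.05, 3 of the 10 were higher and 0 lower, and DESeq2 and limma voom also called 2 higher and 0 lower. The median log2 fold change of the 10 was 0.28, beside 0.00 over all genes tested. The libraries of the ages did not overlap for 4 of the 10 (Plin3, Mgll and Hsd17b11 higher, Abhd5 lower), against 24.2% of all genes tested (11.3% higher and 12.8% lower).

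**Figure D1:**
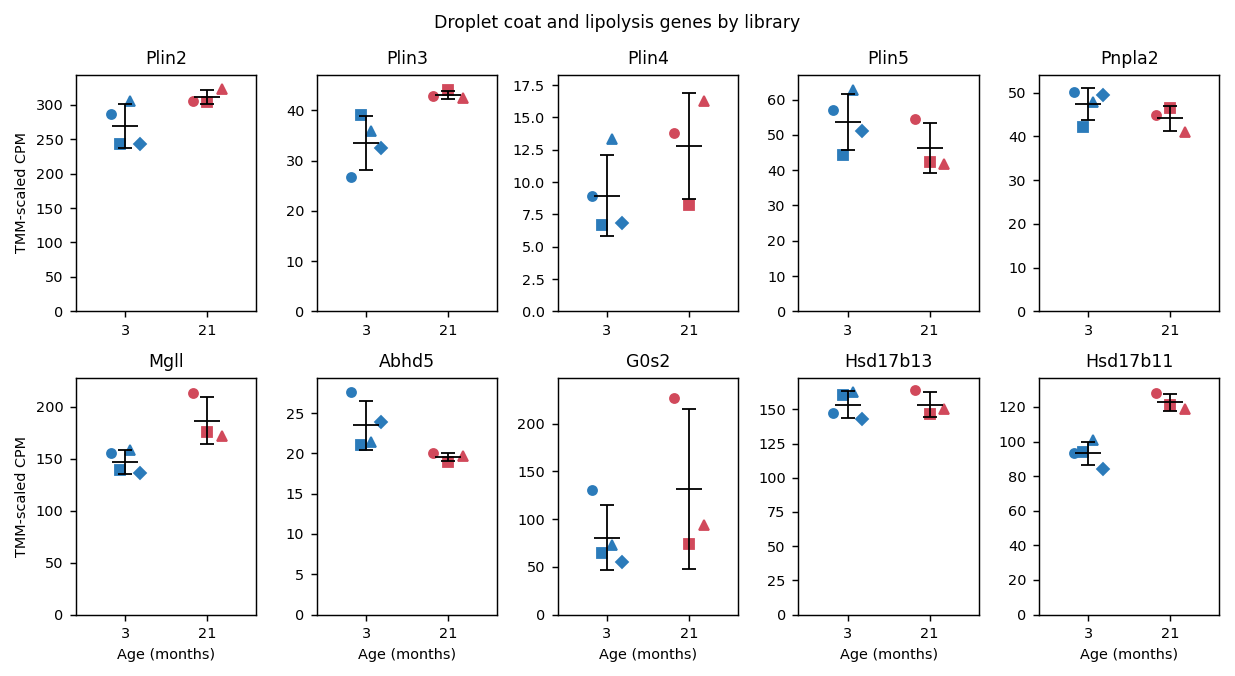
Level of each gene in each library (y axis, TMM-scaled CPM, from 0) at 3 months (blue, n = 4) and 21 months (red, n = 3); circles, squares, triangles and diamonds are replicates 1, 2, 3 and 4, and bars are mean ± SD. Hsd17b11, Mgll and Plin3 at 21 months lie above every 3-month library, Abhd5 lies below, and G0s2 spreads most widely.

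The bases before the start sites of Hsd17b11, Hsd17b13 and Mgll are shown because these are the droplet dehydrogenase pair whose members differed in their age result and the lipase gene that rose. Hsd17b11 and Hsd17b13 are neighbouring coding genes on chromosome 5 in RefSeq's gene order. Promoter windows were matched by symbol in RefSeq sequences of build GRCm38.p6 for all 10 genes; the counts were made on mm9, and no coordinate was converted. Each window holds the 250 bases before the annotated start, 5′ to 3′ on the gene's strand, and capitals mark motif matches on either strand. The Hsd17b11 window is chr5:104021797-104022046 (minus strand), that of Hsd17b13 is chr5:103977389-103977638 (minus strand), and that of the first of 2 Mgll start sites is chr6:88724162-88724411 (plus strand).
Hsd17b11: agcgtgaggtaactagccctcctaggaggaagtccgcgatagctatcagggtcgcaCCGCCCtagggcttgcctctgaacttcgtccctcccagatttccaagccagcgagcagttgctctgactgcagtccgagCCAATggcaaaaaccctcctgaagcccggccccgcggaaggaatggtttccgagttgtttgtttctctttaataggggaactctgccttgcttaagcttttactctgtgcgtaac
Hsd17b13: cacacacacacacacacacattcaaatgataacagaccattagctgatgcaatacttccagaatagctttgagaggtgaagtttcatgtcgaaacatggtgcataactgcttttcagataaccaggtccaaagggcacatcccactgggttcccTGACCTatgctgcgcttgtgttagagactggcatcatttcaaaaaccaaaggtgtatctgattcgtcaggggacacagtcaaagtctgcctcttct
Mgll: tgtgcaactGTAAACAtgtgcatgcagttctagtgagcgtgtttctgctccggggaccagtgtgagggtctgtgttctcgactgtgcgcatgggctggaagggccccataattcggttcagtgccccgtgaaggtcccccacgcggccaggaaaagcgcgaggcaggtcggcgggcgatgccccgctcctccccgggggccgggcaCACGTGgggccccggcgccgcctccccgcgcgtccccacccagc

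Motifs were searched on both strands, and a match is a description of letters, not a site. The Hsd17b11 window held a GC box (GGGCGG, in 32.7% of all 32851 RefSeq windows of this length) and a CCAAT box (CCAAT, 33.8%), while the Hsd17b13 window held 1 nuclear receptor half-site (AGGTCA, 14% of windows). Among the 10 members, 7 had a GC box, 5 a CCAAT box and 4 the half-site (Abhd5, Hsd17b13, Plin2 and Plin5), so these motifs are not particular to the pair. The Hsd17b11 window was 54.8% G or C with 13 CG dinucleotides, and that of Hsd17b13 was 44.8% with 3, so the neighbours differ in base composition. The first Mgll window held an E-box (CACGTG, 6.02%) and a FOXA element (TGTTTAC, 3.17%). No motifs overlapped in these 3 windows. None of the members' windows held a DR1 element (in 0.338% of windows), the repeat bound by PPAR receptors, or the letters TATAAA (12.4%).

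Hsd17b11 encodes a droplet-associated short-chain dehydrogenase. It stood at 93.4, 94.2, 101 and 84.4 CPM (counts per 1e+06 TMM-scaled counts) in the 4 libraries of 3 months, replicates 1 to 4, and at 128, 121 and 119 CPM in the 3 of 21 months. Every 21-month library was above every 3-month one. It rose 1.32-fold (log2 fold change 0.40 ± 0.09 SE, n = 4 and 3, edgeR adjusted p = 0.0134) and was the gene with the smallest p of the 10. Its call held when any single library was left out (edgeR adjusted p = 0.0177 to 0.0464) and when the replicate numbers were taken as pairs. With the length shortfall as a covariate the call was lost (edgeR adjusted p = 0.0639), while the log2 fold change was 0.46 ± 0.12.

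Hsd17b13, the neighbouring relative whose protein is abundant on hepatocyte droplets, stood at 147, 160, 163 and 143 CPM at 3 months and at 164, 146 and 150 CPM at 21 months. The ages covered the same range, with means of 153 ± 9.69 and 153.5 ± 9.12 CPM (SD) and a log2 fold change of 0.00 ± 0.09 SE (edgeR adjusted p = 0.998). On the per-length scale, Hsd17b13 was 2.10, 2.27, 2.15 and 2.26 times Hsd17b11 in TPM at 3 months and 1.70, 1.61 and 1.68 times at 21 months. The ratio was thus lower in every 21-month library, and Hsd17b13 remained the higher of the pair in all 7 libraries. No p is given for this ratio, because both genes were chosen with results of these data known.

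The Hsd17b13 row combines 2 transcripts, and its abundance-weighted length was 1287.78 to 1288.39 bases at 3 months and 1290.51 to 1290.69 bases at 21 months. The ages did not overlap. Of 2555 tested genes whose length varied between libraries, 8.57% had lengths that did not overlap between the ages. The lengths of Plin5, Pnpla2 and Mgll, the other members with a varying length, overlapped. The transcripts were not separated in the gene tables, so their shares are not given.

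Mgll encodes monoacylglycerol lipase. In 3-month replicates 1 to 4 its level was 156, 139, 159 and 136 CPM, and in 21-month replicates 1 to 3 it was 213, 175 and 172 CPM. All 21-month libraries were above all 3-month ones, with replicate 1 highest. Mgll rose 1.27-fold (log2 fold change 0.35 ± 0.10 SE, edgeR adjusted p = 0.0444), close to the threshold. Leaving out any 3-month library, or replicate 1 or replicate 3 of 21 months, ended the call (edgeR adjusted p = 0.0589 to 0.119), and it held without 21-month replicate 2 (edgeR adjusted p = 0.0368). It was also lost with the replicate block (log2 fold change 0.30, edgeR adjusted p = 0.0748) and with the length shortfall as a covariate (0.47, edgeR adjusted p = 0.0731). The log2 fold change stayed between 0.24 and 0.47 in the fits tried.

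Pnpla2, the triglyceride lipase gene at the head of the same pathway, ranged from 42.1 to 50.2 CPM at 3 months and from 40.9 to 46.4 CPM at 21 months. The ranges overlapped, and the test did not call it (log2 fold change -0.10 ± 0.10 SE, edgeR adjusted p = 0.589). In TPM, Mgll was 1.97 to 2.35 times Pnpla2 at 3 months and 2.69 to 3.38 times at 21 months, without overlap.

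Abhd5, the activator of this lipase, stood at 27.6, 21.0, 21.4 and 23.9 CPM at 3 months and at 20, 19.0 and 19.6 CPM at 21 months. The 21-month libraries lay below all 3-month ones, yet the difference did not pass the test (log2 fold change -0.26 ± 0.13 SE, edgeR adjusted p = 0.208). In TPM, Abhd5 was 0.373 to 0.458 times Pnpla2 at 3 months and 0.342 to 0.401 times at 21 months, with overlap.

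G0s2, the inhibitor of this lipase, varied most within an age. Its level was 130, 64.6, 72.4 and 54.5 CPM in 3-month replicates 1 to 4 and 227, 74.0 and 93.5 CPM in 21-month replicates 1 to 3. The libraries numbered 1 were the highest of their age, and the ages overlapped. Without a block the difference was not called (log2 fold change 0.72 ± 0.52 SE, edgeR adjusted p = 0.459). With the replicate number as a block it was called higher at 21 months (0.46 ± 0.12 SE, edgeR adjusted p = 0.0271), each 21-month library standing above the 3-month library of its own number. In fits without a block, the log2 fold change was 0.07 without 21-month replicate 1 (edgeR adjusted p = 0.941), 1.049 without 3-month replicate 1 (edgeR adjusted p = 0.297) and 0.39 ± 0.13 SE with both libraries numbered 1 left out (edgeR adjusted p = 0.0630). G0s2 was 8.45, 5.01, 4.91 and 3.59 times Pnpla2 in TPM at 3 months and 16.5, 5.17 and 7.35 times at 21 months; the inhibitor's transcript was above that of the lipase in every library.

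**Figure D2:**
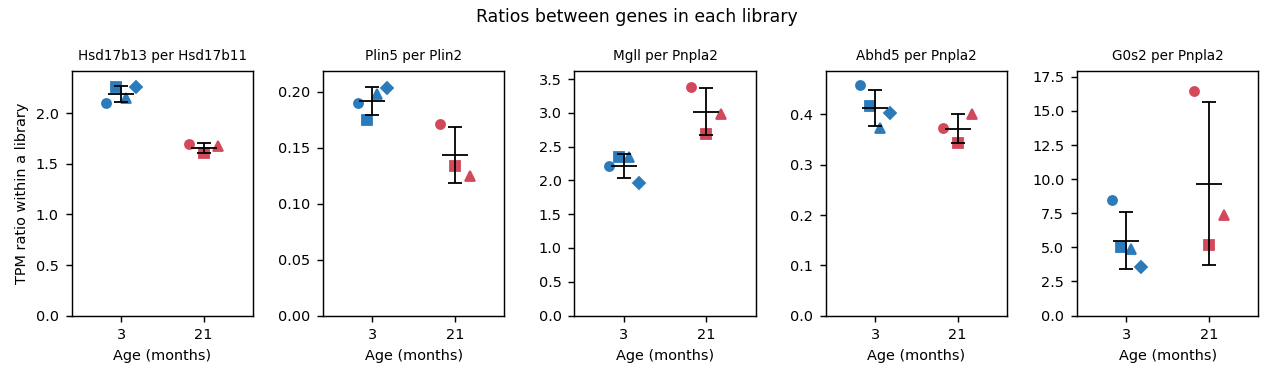
TPM ratio of the first gene to the second within each library (y axis, from 0) at 3 months (blue, n = 4) and 21 months (red, n = 3), with marker shapes for replicates 1 to 4 as circle, square, triangle and diamond and bars for mean ± SD. The ages do not overlap for Hsd17b13 per Hsd17b11 (lower at 21 months, 1.61 to 1.70), Plin5 per Plin2 (lower) and Mgll per Pnpla2 (higher), and overlap for Abhd5 and G0s2 per Pnpla2.

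G0s2 is also abundant in fat cells, so adipocyte markers are given beside it. Of 12 adipocyte markers, 6 did not pass the filter on low counts (Plin1, Adipoq, Lep, Retn, Acvr1c and Tusc5), and their counts summed to 17, 3, 0 and 1 in 3-month replicates 1 to 4 and to 16, 5 and 4 in 21-month replicates 1 to 3. Adipoq, which encodes the fat cell hormone adiponectin, had 7 counts in 3-month replicate 1, 0 in the other 3-month libraries, and 5, 0 and 1 at 21 months. The libraries numbered 1, where G0s2 was highest, thus held most of these counts. Between 21-month replicates 2 and 3, the summed level of these 6 was the higher in replicate 2 (0.87 against 0.35 TPM) and G0s2 the higher in replicate 3. Fabp4, a marker that passed the filter, was highest in neither library numbered 1, at 22.9, 16.3, 23.5 and 11.5 TPM in 3-month replicates 1 to 4 and 14.98, 20.1 and 10.9 TPM in 21-month replicates 1 to 3. Cfd, which also passed the filter, was highest within each age in the library numbered 1. It stood at 8.32, 0.8, 0.47 and 0.65 TPM at 3 months and at 6.63, 5.11 and 6.29 TPM at 21 months. Over all 12 markers the summed level was 3438 to 4372 TPM at 3 months and 4122 to 6514 TPM at 21 months, nearly all from Car3, which hepatocytes express too. Of the 6 markers tested, 2 were called higher and 0 lower, Cidec and Pparg, which hepatocytes express as well, and at an unadjusted p under 0.05 the counts were 3 and 0. The part of fat cell RNA in the level of G0s2 was not tested.

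**Figure D3:**
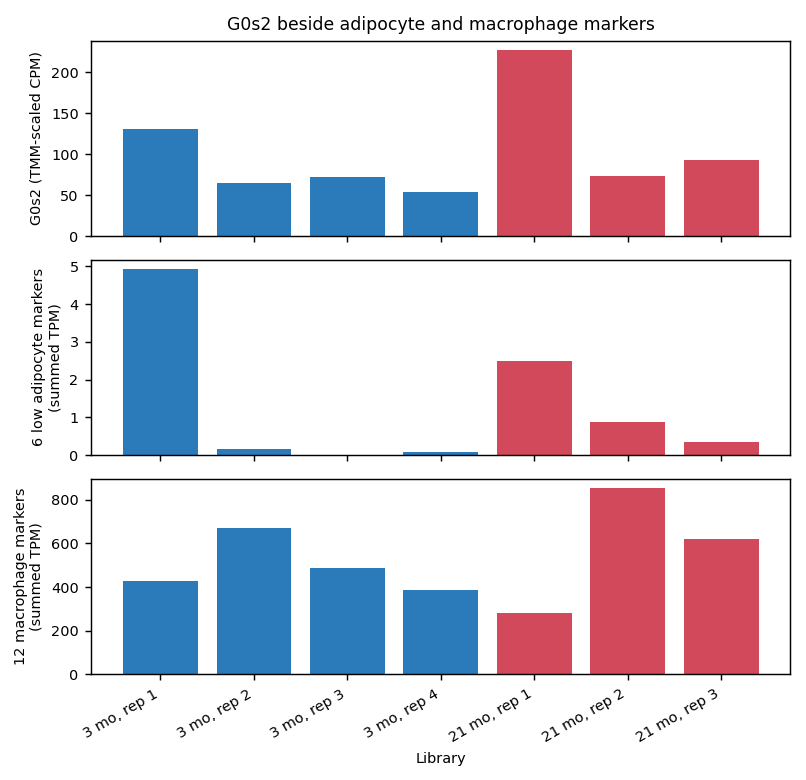
G0s2 in TMM-scaled CPM (top), the summed TPM of the 6 adipocyte markers too low to test (middle) and the summed TPM of 12 macrophage markers (bottom) in each library, 3 months in blue and 21 months in red. G0s2 (130 and 227 CPM) and the adipocyte sum are highest within each age in the libraries numbered 1, and the macrophage sum is lowest in 21-month replicate 1.

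Among the perilipins no gene passed the test. Plin2 stood at 287, 243, 305 and 242 CPM at 3 months and at 305, 305 and 323 CPM at 21 months. The 21-month libraries were at or near the top of the 3-month range (log2 fold change 0.21 ± 0.10 SE, edgeR adjusted p = 0.214). Plin3, a coat protein that moves from the cytosol onto small droplets, stood at 26.6, 39.1, 35.8 and 32.5 CPM at 3 months and at 42.9, 44.0 and 42.5 CPM at 21 months. It did not overlap between the ages but missed the threshold (log2 fold change 0.35 ± 0.12 SE, edgeR adjusted p = 0.0767); leaving out each library gave edgeR adjusted p = 0.0557 to 0.174.

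Plin4, a perilipin best known from fat and muscle, was low, at 6.69 to 13.4 CPM at 3 months and 8.24 to 16.3 CPM at 21 months. Its log2 fold change was 0.57 ± 0.28 SE (edgeR adjusted p = 0.220), and it was called higher without 21-month replicate 2 alone among the fits tried (0.81, edgeR adjusted p = 0.0469). Plin5 lay at 44.2 to 62.7 CPM at 3 months and 41.9 to 54.5 CPM at 21 months, with overlap (log2 fold change -0.21 ± 0.13 SE, edgeR adjusted p = 0.358). Plin1, the perilipin of fat cells and no member of this group, had 5 counts in 3-month replicate 1, 4 in 21-month replicate 1 and 0 in the other 5 libraries.

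The makeup of the perilipin transcripts is given as shares without a test. In TPM, Plin2 made up 75.2% to 78.1% of the 4 genes' sum at 3 months and 76.4% to 79.6% at 21 months, and the shares of Plin3 and Plin4 overlapped between the ages as well. Plin5 took 14.9%, 13.2%, 15.1% and 15.3% of that sum in 3-month replicates 1 to 4 and 13.1%, 10.6% and 9.97% in 21-month replicates 1 to 3. The Plin5 share was lower in every 21-month library, although 21-month replicate 1 lay just under the lowest 3-month one. The summed level of the 4 genes was 308 to 442 TPM at 3 months and 427 to 468 TPM at 21 months, with overlap.

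**Figure D4:**
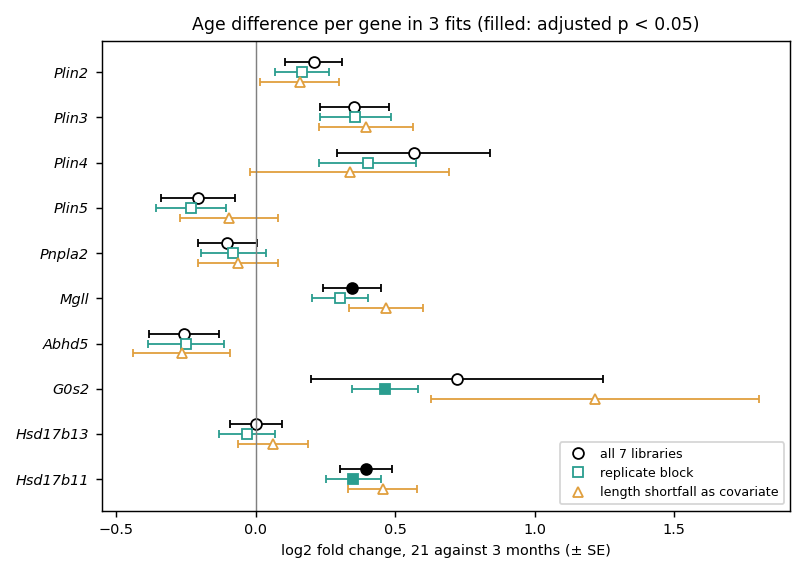
Log2 fold change of each gene, 21 against 3 months (x axis, bars ± SE), in the fit of all 7 libraries (black circles), with the replicate number as a block (green squares) and with the length shortfall as a covariate (orange triangles); filled symbols have an adjusted p under 0.05. Hsd17b11 and Mgll are called without a block, Hsd17b11 and G0s2 with it, and no gene with the covariate.

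Per length, the order of the 10 genes differed between the ages in 2 neighbouring swaps. Plin2, the highest, stood above 96.4% of all genes tested at 3 months, and Plin4, the lowest, above 20.3%. At 3 months the mean levels ran from Plin2 (280 ± 43.1 TPM, SD, n = 4) through Hsd17b13 (237 ± 32.8), G0s2 (192 ± 75.0), Hsd17b11 (108 ± 15.1), Mgll (77.5 ± 9.05), Plin5 (53.7 ± 9.09), Pnpla2 (34.9 ± 1.99), Plin3 (30.5 ± 6.85) and Abhd5 (14.4 ± 1.17) to Plin4 (3.02 ± 1.19). Neighbours in this order overlapped in their libraries down to Hsd17b11, between Mgll and Plin5, and between Pnpla2 and Plin3. At 21 months the mean of G0s2 (335 ± 197 TPM, n = 3) stood above that of Hsd17b13 (256 ± 3.34) and that of Plin3 (42.4 ± 2.40) above Pnpla2 (35.4 ± 2.67). There Plin2 overlapped G0s2 and G0s2 overlapped Hsd17b13, and no other neighbours did. On the TPM scale the median of all genes tested lay 0.10 above 0 (log2) at 21 months, so a level in TPM is read against that shift; of the genes called by limma on log2(TPM + 1), 74.9% were higher, against 48.3% of those called in the count fit.

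The members that rose had close matches among other genes. Over the 7 libraries, the log2 CPM of Hsd17b11 followed most closely Tlcd1 (Pearson r = 0.984), Samd9l (0.984) and Crat (0.982), which encodes carnitine acetyltransferase. That of Mgll followed Sytl1 (0.979), Perp (0.975) and Ech1 (0.973), an enzyme of fatty acid oxidation. These are the highest of 8761 genes with a mean of at least 5 CPM. They are descriptions without a p, because they were picked as the highest of many genes over 7 libraries, which also share their age difference. The same was not computed for the members that were not called, so how close such a match usually is was not tested. Between the members, Mgll and Hsd17b11 had r = 0.919, Mgll and G0s2 0.818 and Plin2 and Plin4 0.854, while Plin3 and Abhd5 had r = -0.99. These are the highest values and the lowest among all pairs of members, so they too are descriptions without a p. Mgll, Hsd17b11, Plin3 and Abhd5 did not overlap between the ages, and that age difference enters their r values.

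Other genes of the pathway, in 4 lists written with earlier results of these data known, were called higher more often than lower. Over all genes tested, 5.47% were called higher and 5.86% lower. Of 19 tested genes of droplet coat, growth and size outside the members, 6 were called higher and 0 lower (median log2 fold change 0.21), with Fitm1, which helps form droplets, from 48.8 to 74.9 TPM at 3 months to 232 to 268 TPM at 21 months. Cidea, a droplet fusion protein, was listed at 0.59, 0, 0 and 0 TPM at 3 months and at 40.7, 22.8 and 60.5 TPM at 21 months, and its relative Cidec rose 12.1-fold. Of 16 neutral lipid hydrolases outside the members, 4 were called higher and 0 lower (median 0.20). The smallest adjusted p-values were those of the carboxylesterase Ces1g (log2 fold change 0.68), the lysosomal acid lipase Lipa (0.76) and Ces1e (0.73), of which Ces1e and Ces1g belong to a family of similar copies whose reads may be split. The fourth, Pnpla3, had the largest log2 fold change (2.38) but stood at 0 to 0.34 TPM at 3 months and 0.68 to 1.75 TPM at 21 months. Hormone-sensitive lipase (Lipe) was not called (log2 fold change -0.03, edgeR adjusted p = 0.933).

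Of 20 regulators of lipolysis and storage, 4 were called higher and 0 lower (median 0.08), with the smallest adjusted p-values for Srebf1 (log2 fold change 0.58), Pparg (0.69) and Ppargc1a (0.85, under 3 TPM in every library). Of 24 tested PPARA targets of fatty acid oxidation, 9 were called higher and 0 lower (median 0.41). The smallest adjusted p-values were those of Pex11a (1.54-fold), Cd36 (5.23-fold) and Acot4 (2.83-fold), and the largest fold among the 9 was that of Cyp4a14 (17.6-fold). In the order of these lists, unadjusted p under 0.05 gave 8, 7, 6 and 16 genes higher and 1, 0, 1 and 2 lower. DESeq2 called 6, 4, 2 and 12 higher and 0, 0, 0 and 1 lower. By limma voom, 6, 4, 3 and 7 were called higher and 0 lower in each. With the length shortfall as a covariate, 5, 4, 0 and 1 genes were called higher in these lists, and with the replicate block 7, 4, 3 and 10. Without any 1 library the counts of genes called higher were 6 to 7, 3 to 5, 1 to 4 and 3 to 9. Calls of lower genes in those fits were 2 PPARA targets without 21-month replicate 1 and 1 regulator without 21-month replicate 2, and the fits with the replicate block and with no filter on low counts each called 1 PPARA target lower. With both libraries numbered 1 left out, 3 PPARA targets were called higher and 1 lower.

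Markers of other liver cells gave these counts beside the members, where 11.3% of all genes tested were called in either direction. Of 12 macrophage markers 0 were called (0 also at an unadjusted p under 0.05, by DESeq2 and by limma voom), with summed levels of 387 to 673 TPM at 3 months and of 281, 856 and 619 TPM at 21 months, lowest in the library where G0s2 and Mgll were highest. Of 12 stellate cell markers 1 was called higher (100.1 to 145 TPM and 155 to 212 TPM). Of 8 endothelial markers 1 was called lower (109 to 185 and 96.4 to 218 TPM), and of 5 tested bile duct markers 1 lower. The endothelial sum (96.4 TPM) and the bile duct sum (44.65 TPM) were likewise lowest of all libraries in 21-month replicate 1. The stellate sum in that library (155 TPM) was the lowest of its age. Of 2 tested B and plasma cell markers 1 was called higher, while DESeq2 called 2 of the list higher and limma voom 0. The list sum was 3.96 to 5.35 TPM at 3 months and 9.64, 50.4 and 13.2 TPM in 21-month replicates 1 to 3. Of 3 tested blood cell markers 0 were called, also at an unadjusted p under 0.05 and by DESeq2 and limma voom. No muscle marker passed the filter, and Ckm, Myh1, Myh4 and Tnnt3 were at 0 in all libraries. In bulk liver, fewer cells of a type and less RNA per cell cannot be told apart, and the part of these cells in the levels of the members was not tested.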

How the data were processed

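The authors deposited 1 table per library with expected counts per gene, of which 86.5% were whole numbers (within 1e-06), and TPM values; both columns are named per the file headers, as are each gene's length and effective length. TopHat, RSEM, edgeR and the build mm9 are named per the submitters' processing notes; what each did, and in which version, is not given in the sources used here. Libraries were strand-specific and amplified by PCR without molecular identifiers, per the labels' protocols.

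Expected counts were rounded, filtered with filterByExpr at its defaults (minimum count 10, minimum total 15) and scaled by TMM. The minimum count, scaled to library size, must be met only in about as many libraries as the smaller age group holds. A gene low at 3 months could thus pass through its 21-month counts, as Cidea did. The age difference (21 against 3 months) came from a robust quasi-likelihood fit in edgeR 4.0.16 under R 4.3.3, with Benjamini-Hochberg adjustment at 0.05. The SE is the size of the log2 fold change over the square root of F. The fit was tested on simulated data with log2 changes larger than those of the called members. That test therefore does not speak for changes of their size. Alternatives were RLE, upper-quartile and library-size scaling, DESeq2 1.42.0, limma voom (limma 3.58.1), limma on log2(TPM + 1), no filter, a mean of at least 5 CPM, ribosomal RNA rows removed, a replicate block, the length shortfall as a covariate and each library left out; figures used matplotlib 3.10.9. Depth limits low genes; the floor of 3 counts was 0.257 to 0.607 CPM by library and covers counting error only.

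The titles share replicate numbers 1 to 3, and deviations from the age means correlated at 0.107, 0.174 and 0.1045 within the 3 pairs; each was over 0.1, so the blocked value is given where it changed a call. An unmatched pair, 21-month replicate 1 with 3-month replicate 4, correlated at 0.159, above the 0.107 of its own number. This rests on the data, not on a label. All library pairs of an age differed by more than counting noise, for which chi-square per degree of freedom is near 1. At 3 months it was 4.317 for replicates 2 and 3, 10.55 for replicates 1 and 4, and 15.77 to 20.24 for the other pairs. At 21 months it was 6.256 for replicates 2 and 3, and 20.88 and 16.24 for replicate 1 with replicates 2 and 3. What sets these differences was not tested.

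Members and lists were chosen with earlier results of these data known. Named genes were all 10 members, up to 3 called genes with the smallest adjusted p in each of 4 pathway lists, and the 3 genes most correlated with each called member. Lipe, Adipoq, Plin1, Car3, Fabp4, Cfd, Alb, Pnpla3 and Cyp4a14 were named after their values were seen. The motifs were chosen after the counts were seen.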

Additional observations from a re-analysis of the deposited data

How the results depend on the processing

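In 19 alternative fits, of which the one with both libraries numbered 1 left out was chosen after seeing the data, Hsd17b11 was called higher in 18 and Mgll in 10, and no member was called lower. The number of members called higher was 0 with the length shortfall as a covariate and 1 with both libraries numbered 1 left out, against 2; leaving out each library in turn gave 1 to 3. Of all genes tested, 1274 were called, 332 with the length shortfall as a covariate, 1075 with the replicate block, and 580 to 1642 with 1 library left out; the lowest counts were 580 without 21-month replicate 3 and 745, 773 and 834 without 3-month replicates 4, 2 and 3. Taking the replicate numbers as pairs changed the calls of Mgll and G0s2 and of no other member. Hsd17b13, at a log2 fold change of 0.00, turned negative with no filter on low counts (-0.004377), with the replicate block (-0.03175), without 3-month replicate 1 or 4 or 21-month replicate 1, and with both libraries numbered 1 left out (-0.07002); its fits with 1 library left out ran from -0.04998 to 0.05134. Pnpla2 turned from -0.10 to 0.01804 in limma on log2(TPM + 1), the scale on which the median of all genes tested lay 0.10 above 0. For the covariate, the cause of the lost calls was not tested; the 2 lowest shortfalls were at 21 months. Fits with a library left out hold fewer samples. Depth of 42 to 140 counts limits what can be said of Plin4.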
